A study of Mus musculus with 20 samples.

Results

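Short CDR3α were the in-frame TCRα clones whose complementarity-determining region 3 (CDR3) held at most 11 residues, counted from its first cysteine to its last residue. They numbered 15206 clones of 212832 in-frame TCRα clones in 17 mice, and the remaining 197626 clones held 12 or more residues. The libraries were made from CD8 T cells of lymph nodes and, per the study's methods, spleens, sorted as TCRβ high CD4-CD8+ at over 98% purity from male mice of 9 to 12 weeks on the B6 background. WT mice (n = 4) carried both proteasome subunits. β5i-KO mice (n = 5) lacked β5i, the Psmb8-encoded subunit of the immunoproteasome. β5t-KO mice (n = 4) lacked β5t, the Psmb11-encoded subunit of the thymoproteasome. BIT mice (n = 4) were homozygous for an allele of a single engineered line in which the β5t coding sequence took the place of β5i at Psmb8, so they carried β5t widely and no β5i. TCR libraries hold no proteasome transcripts, so the genotype of each mouse could not be checked here. WT replicate 5 was not analysed here. BIT replicate 3, with 475 in-frame clones, and β5t-KO replicate 5, with 24, were left out of the comparisons.

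The CDR3α is the loop of the TCRα chain that meets the bound peptide, and it is encoded across the junction of a Vα and a Jα segment. Its length is set by which segments are joined, by the bases that nucleases trim from each end and by the bases that terminal transferase adds. CD8 T cells are positively selected in the thymic cortex on peptides that cortical epithelial cells display on class I MHC, and β5t is the proteasome subunit specific to those cells. In-frame chains can be displayed and are thus open to selection, whereas out-of-frame chains on the second allele are carried along without being displayed.

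Germline segments of the short CDR3α that the results turn on lie on mouse chromosome 14 and are printed from the GENCODE annotation of GRCm39, because they show how little of a short CDR3α is left to the junction. All lie on the plus strand. Capitals mark the bases that fall in the CDR3 when nothing is trimmed, and for TRAV12-1 only the last 30 bases of the segment are given.
TRAV12-1 (its end, within chr14:53775648-53776195): ctctgccctgtactacTGTGCTCTGAGTGA
TRAJ9, chr14:54446850-54446907: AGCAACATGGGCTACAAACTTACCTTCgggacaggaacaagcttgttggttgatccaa
TRAJ6, chr14:54450145-54450206: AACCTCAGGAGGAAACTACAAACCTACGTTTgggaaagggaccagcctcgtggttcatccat
TRAJ7, chr14:54448927-54448985: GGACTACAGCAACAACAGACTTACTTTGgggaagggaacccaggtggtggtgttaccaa
TRAJ31, chr14:54425352-54425408: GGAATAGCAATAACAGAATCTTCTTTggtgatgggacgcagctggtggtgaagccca

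TRAJ9 places 27 bases in the CDR3, TRAJ31 places 26, TRAJ7 places 28 and TRAJ6 places 31. The most frequent junctions of 6 short CDR3α are given next, because these sequences recur in the abundance results below. Capitals mark the bases assigned to the J segment, and lower case marks V bases followed by added bases.
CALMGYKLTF (TRAV12 with TRAJ9): tgtgctctgaTGGGCTACAAACTTACCTTC
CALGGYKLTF (TRAV12 with TRAJ9): tgtgctctgggGGGCTACAAACTTACCTTC
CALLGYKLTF (TRAV12 with TRAJ9): tgtgctctgtTGGGCTACAAACTTACCTTC
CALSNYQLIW (TRAV12 with TRAJ33): tgtgctctgaGCAACTATCAGTTGATCTGG
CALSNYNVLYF (TRAV12 with TRAJ21): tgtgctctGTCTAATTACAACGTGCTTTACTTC
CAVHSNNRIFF (TRAV7 with TRAJ31): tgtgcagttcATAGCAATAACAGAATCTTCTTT
The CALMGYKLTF junction held 10 V bases, 0 added bases and 20 J bases, with 7 J bases trimmed. The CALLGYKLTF junction differed in holding 9 V bases and 1 added base, and the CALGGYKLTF junction held 2 added bases and 19 J bases.

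The libraries held 13519 to 555786 in-frame molecules (unique molecular identifiers) and 622 to 26272 in-frame clonotypes, a clonotype being one V gene, J gene and amino acid CDR3. Between 18 and 1883 clonotypes a mouse were short, and the lowest number was in β5t-KO replicate 2, which held 74491 in-frame molecules. The fewest molecules were in β5i-KO replicate 4, which still had 522 short clonotypes. Invariant chains of innate-like T cells were nearly absent: 0 short clones joined TRAV11 to TRAJ18, and TRAV1 with TRAJ33 made up 0.0492% to 0.107% of the short molecules of each genotype. TRDV genes made up 0.0824% to 0.275%.

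β5t-KO mice carried fewer short CDR3α than WT, β5i-KO or BIT mice, by molecules and by clonotypes. Of in-frame clonotypes, 7.74%, 7.94%, 7.39% and 7.38% were short in the 4 WT mice. The β5t-KO mice gave 5.12%, 2.89%, 5.45% and 3.91%. The BIT mice gave 7.17%, 7.43%, 6.75% and 7.21%, and the β5i-KO mice lay between 6.86% and 8.04%. Every β5t-KO mouse was thus below every mouse of the other genotypes. The lowest of them rested on 18 of 622 clonotypes (95% Clopper-Pearson interval 1.72% to 4.54%, counting error only), and the upper bound was still below the other genotypes' values.

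The mean short share of clonotypes was 4.34% in β5t-KO and 7.61% in WT mice, a difference of -3.27 percentage points (exact permutation test, two-sided, p = 0.0286, adjusted over 5 comparisons 0.0714). BIT mice exceeded β5t-KO mice by 2.8 points (exact permutation p = 0.0286, adjusted 0.0714). With 4 mice against 4 the smallest p this test can give is 0.0286, so with only these comparisons at the floor the adjusted value could not pass 0.05. β5i-KO differed from WT by -0.0513 points (exact permutation p = 0.841, adjusted 0.841) and BIT from WT by -0.472 points (exact permutation p = 0.0857, adjusted 0.143), with overlapping values in both comparisons. BIT differed from β5i-KO by -0.42 points (exact permutation p = 0.206, adjusted 0.258).

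Counted in molecules the gap was wider. Short CDR3α took 9.01% of in-frame molecules in WT (SD 0.458, n = 4), 8.57% in β5i-KO, 8.27% in BIT and 4.19% in β5t-KO mice. The difference between β5t-KO and WT was -4.82 points, to 0.465 of the WT share (exact permutation p = 0.0286, adjusted 0.0714), and that between BIT and β5t-KO was 4.08 points (exact permutation p = 0.0286, adjusted 0.0714). When every library was thinned to 13519 molecules, β5t-KO fell below WT by 5.1 points (exact permutation, adjusted p = 0.0476) and BIT was also below WT, by 1.02 points (exact permutation, adjusted p = 0.0476). The unadjusted p of β5t-KO against WT stayed at 0.0286. Its adjusted value fell only because BIT against WT reached the floor too, in a single random draw of molecules. BIT replicate 3, outside the comparisons, had 5.65% of molecules and 5.93% of clonotypes short, between the β5t-KO mice and the other BIT mice. Its clonotype share rested on only 27 of 455 clonotypes, so its place between them is uncertain.

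**Figure D1:**
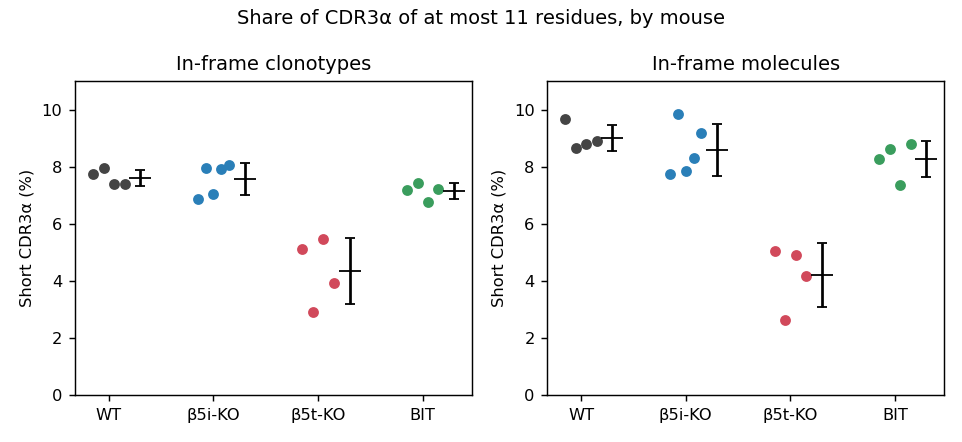
Percent of in-frame TCRα clonotypes (left) and molecules (right) with a CDR3α of at most 11 residues. Each point is 1 mouse, and bars give the mean and SD by genotype. The 4 β5t-KO mice lie below all other mice in both panels.

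Lengths of 10 and 11 residues made up nearly all short CDR3α. Clones of 11 residues were 69.1% of the short clones and clones of 10 residues 25%, whereas 9 residues made up 3.52% and 8 residues 1.4%. The 4 WT mice held 2.04%, 2.02%, 1.95% and 1.67% of clonotypes at 10 residues. The β5t-KO mice held 1.07%, 0.804%, 1.12% and 0.722%, the BIT mice 1.62% to 1.84% and the β5i-KO mice 1.57% to 2.13%. At 10 residues the β5t-KO mice were all below the other mice.

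Clonotypes per length were compared with edgeR's quasi-likelihood test over 14 lengths. In β5t-KO against WT, 2 of 6 short lengths were lower and none was higher, beside 28.6% of all lengths called. The log2 fold change was -0.83 ± 0.16 (SE) at 10 residues (edgeR adjusted p 6.35e-06) and -0.49 ± 0.09 at 11 residues (edgeR adjusted p 4.68e-06). Just outside the limit, 12 residues gave -0.22 ± 0.05 (edgeR adjusted p 0.000103), and the estimates from 13 to 18 residues were positive, with 16 residues called at 0.29 ± 0.07 (edgeR adjusted p 0.000171). The decrease was therefore larger at 10 than at 11 and 12 residues by its estimate, a difference between lengths that was not tested.

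In BIT against β5t-KO mice, 3 of 6 short lengths were higher and none was lower, beside 35.7% of all lengths called. These were 8 residues at 1.47 ± 0.48 (edgeR adjusted p 0.00753), 10 residues at 0.74 ± 0.15 (edgeR adjusted p 4.11e-05) and 11 residues at 0.40 ± 0.08 (edgeR adjusted p 4.11e-05). The call at 8 residues held under 12 of 15 alternatives, with an edgeR or DESeq2 adjusted p of up to 0.257. No short length was called in β5i-KO or BIT against WT or in BIT against β5i-KO with edgeR, where 0, 0 and 1 of 6 had an unadjusted p under 0.05, and DESeq2 also called 0.

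**Figure D2:**
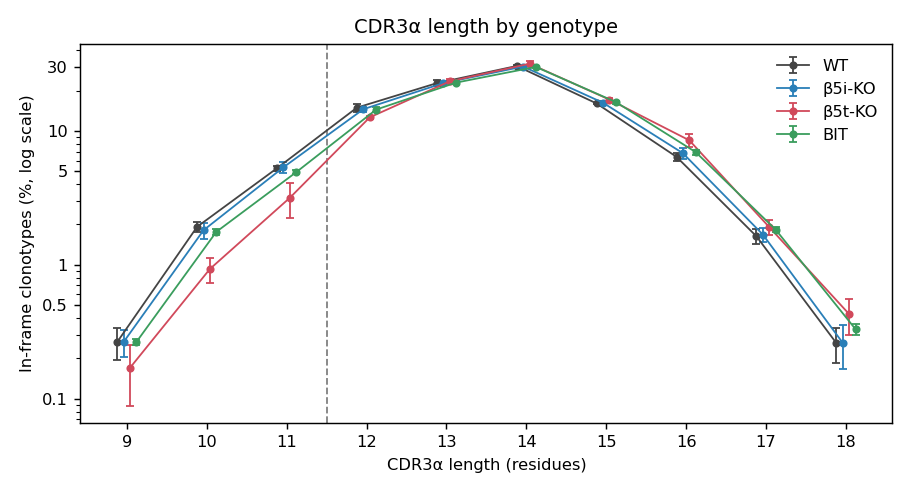
Percent of in-frame TCRα clonotypes at each CDR3α length from 9 to 18 residues, on a log scale, as the mean and SD over the mice of each genotype. The dashed line marks the limit of 11 residues. The β5t-KO curve lies below the others at 10 and 11 residues and above them at 16.

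TRAV12, the V subgroup most used by short CDR3α, held the larger part of the difference between genotypes. Short TRAV12 clonotypes made up 3.6% ± 0.643 of all clonotypes in WT and 1% ± 0.405 in β5t-KO mice (SD, n = 4 each), with 3.25% in β5i-KO and 2.76% in BIT mice. TRAV12 carried 47.2% ± 7.23 of short clonotypes in WT (SD, n = 4), 42.8% ± 6.13 in β5i-KO (n = 5), 38.6% ± 2.57 in BIT (n = 4) and 22.6% ± 4.12 in β5t-KO mice (n = 4). Their log2 fold change in β5t-KO against WT was -1.52 ± 0.19 (edgeR adjusted p 3.44e-07) and in BIT against β5t-KO 1.18 ± 0.19 (edgeR adjusted p 2.33e-05). Longer TRAV12 clonotypes gave -0.14 ± 0.07 in β5t-KO against WT (edgeR adjusted p 0.189). Over the 15 alternative settings the short TRAV12 decrease ranged from -2.51 to -1.41 and stayed called.

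TRAV12 was the only short V subgroup called among 15, lower in β5t-KO against WT beside 11.1% of all 36 V and length classes called, and higher in BIT against β5t-KO beside 8.33%. The other V subgroups common among short CDR3α gave values nearer 0 in β5t-KO against WT. TRAV14 was at 0.06 ± 0.19, TRAV13 at 0.06 ± 0.25, TRAV3 at 0.05 ± 0.25 and TRAV7 at -0.36 ± 0.18 (edgeR adjusted p 0.924, 0.946, 0.946 and 0.187). These 4 subgroups are used by conventional αβ T cells and held 8.2%, 5.32%, 6.22% and 14.9% of WT short clonotypes. Of all 15 short estimates 8 were negative and 7 positive. Among the less used subgroups, TRAV8 was at -0.78 ± 0.30 and TRAV6 at 0.63 ± 0.34 (edgeR adjusted p 0.108 and 0.189). Within single V subgroups the β5t-KO mean of the short share was below that of WT for 11 of 15, with a median ratio of 0.674. DESeq2 called 3 short V subgroups lower in β5t-KO against WT. With edgeR, 0 short V subgroups were called in β5i-KO or BIT against WT or in BIT against β5i-KO. In BIT against WT, short TRAV12 clonotypes were at -0.33 ± 0.14 (edgeR adjusted p 0.0942). Longer TRAV12 clonotypes were called lower there, at -0.28 ± 0.07 (edgeR adjusted p 0.0137).

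Within TRAV12, the 4 WT mice had 13.7%, 12.9%, 12.3% and 12.3% of clonotypes short. The BIT mice had 12.8%, 13%, 10.1% and 12.7%, and the β5i-KO mice 11.6% to 15%. The β5t-KO mice had 5.69%, 2.84%, 5.74% and 3.04%, below all other mice. Among all remaining V subgroups the WT mice had 4.93%, 5.85%, 5.66% and 5.81%, the BIT mice 5.57% to 5.77% and the β5t-KO mice 4.95%, 2.91%, 5.35% and 4.16%. Outside TRAV12, β5t-KO and WT mice overlapped.

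Put as a difference, the short share was 7.23 points higher inside TRAV12 than outside it in WT mice, 7.4 in β5i-KO, 6.5 in BIT and -0.0153 in β5t-KO mice. This TRAV12 excess was 7.24 points smaller in β5t-KO than in WT mice (exact permutation p = 0.0286, the smallest possible, adjusted 0.0714) and lower than in BIT mice by 6.51 points (exact permutation p = 0.0286, adjusted 0.0714). It was computed after the V subgroup results were known. Without TRAV12 clonotypes the short share in β5t-KO differed from WT by -1.22 points (exact permutation p = 0.0857, adjusted 0.214), and BIT exceeded β5t-KO by 1.32 points (exact permutation p = 0.0286, adjusted 0.143). In molecules, 15.8% of TRAV12 was short in WT and 2.95% in β5t-KO mice, against 5.7% and 4.76% for the other V subgroups.

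The TRAV12 gap was present at 10 and at 11 residues and extended to 12. At 10 residues TRAV12 clonotypes held 4.4% ± 0.441 in WT and 1.27% ± 0.177 in β5t-KO mice (SD, n = 4 each), and other V subgroups held 0.936% ± 0.187 and 0.831% ± 0.244. At 11 residues TRAV12 held 7.68% ± 0.536 and 2.81% ± 1.33, and the others 4.3% ± 0.184 and 3.26% ± 0.85. At 12 residues TRAV12 held 16.8% ± 1.7 and 9.83% ± 1.39, and the others 14.1% ± 0.809 and 13.4% ± 0.715. At 10, 11 and 12 residues the TRAV12 values of the 2 genotypes did not overlap.

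TRAV12-1 had the highest mean short share among 6 TRAV12 genes in WT, β5i-KO and BIT mice, but not in β5t-KO mice. In WT mice 16% ± 1.17 of TRAV12-1 clonotypes were short and in β5t-KO mice 3.36% ± 1.72 (SD, n = 4 each), whereas TRAV12-2 gave 8.29% ± 0.731 and 5.68% ± 2.21. TRAV12 copies are similar in sequence. Of 6516 short TRAV12 clones 65.7% listed more than 1 V gene, which makes the split between copies uncertain, but only 3 listed a second V subgroup.

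**Figure D3:**
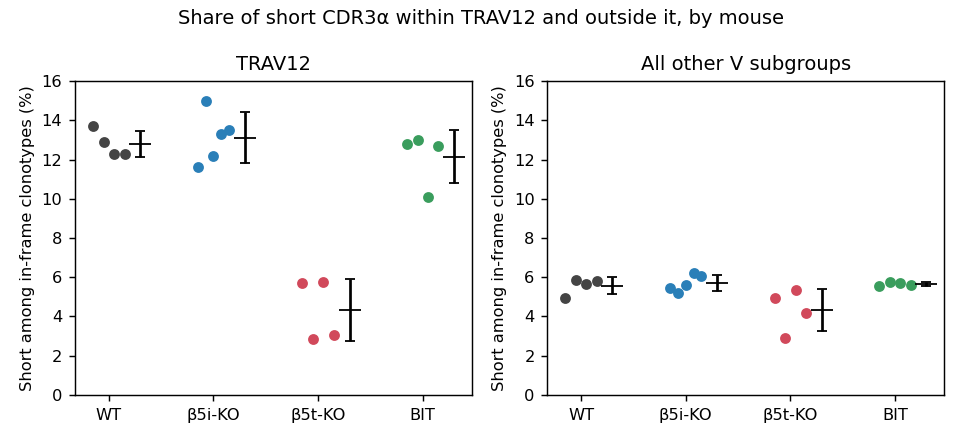
Percent of in-frame clonotypes that are short, among TRAV12 clonotypes (left) and among clonotypes of all other V subgroups (right). Each point is 1 mouse, and bars give the mean and SD by genotype. The β5t-KO mice stand apart inside TRAV12, at 2.84% to 5.74%, and overlap WT mice outside it.

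Short CDR3α were spread over many J genes. TRAJ31 held 14.4% of short clonotypes as a mean over 17 mice, TRAJ33 7.66%, TRAJ21 6.86% and TRAJ9 6.75%. In β5t-KO against WT, 11 of 33 short J genes were lower and none was higher, beside 27.6% of all 76 J and length classes called. Of the 33 estimates 29 were negative, with a median log2 fold change of -0.63, and the median over all 76 classes was -0.15. In BIT against β5t-KO, 5 of 33 short J genes were higher and none was lower, beside 11.8% of all classes called. With edgeR, 0 short J genes were called in each of the 3 comparisons among WT, β5i-KO and BIT, where 1 of 33 had an unadjusted p under 0.05 each time, and DESeq2 called 0. The count of 11 fell to 4 without β5t-KO replicate 3 and to 7 without WT replicate 4, and the count of 5 to 3 without β5t-KO replicate 3. DESeq2 called 4 and 2.

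TRAJ6 was nearly absent from short CDR3α of β5t-KO mice. Its short clonotypes made up 0.163%, 0.0692%, 0.106% and 0.113% of clonotypes in the 4 WT mice, 0.0725% to 0.114% in β5i-KO and 0.0761% to 0.135% in BIT mice. The β5t-KO mice held 0.0155%, which was 1 clonotype, in replicate 1 and 0 in the others. The log2 fold change against WT was -3.91 ± 0.75 (edgeR adjusted p 0.000593), and BIT exceeded β5t-KO by 3.75 ± 0.74 (edgeR adjusted p 0.000864).

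TRAJ9, the J gene of the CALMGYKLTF group, followed. Its short clonotypes made up 1.06%, 0.64%, 0.51% and 0.587% of clonotypes in WT mice and 0.186%, 0, 0.313% and 0.181% in β5t-KO mice, with BIT mice at 0.437% to 0.601%. The β5t-KO mice were all below the other mice. The log2 fold change was -1.39 ± 0.28 in β5t-KO against WT (edgeR adjusted p 0.00062) and 1.16 ± 0.27 in BIT against β5t-KO (edgeR adjusted p 0.00414). Short TRAJ9 clonotypes of WT mice were shared about equally between TRAV12, at 0.382% ± 0.208 of clonotypes, and other V subgroups, at 0.317% ± 0.0739 (SD, n = 4). In β5t-KO mice they were at 0.0314% ± 0.0363 and 0.139% ± 0.106.

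Short TRAJ7, TRAJ23 and TRAJ17 clonotypes were also lower in β5t-KO against WT and higher in BIT against β5t-KO mice. Against WT the log2 fold change was -1.91 ± 0.46 for TRAJ7 (edgeR adjusted p 0.00429), -1.16 ± 0.28 for TRAJ23 (edgeR adjusted p 0.00429) and -1.79 ± 0.53 for TRAJ17 (edgeR adjusted p 0.0203). TRAJ13 was at -0.87 ± 0.26 and TRAJ15 at -0.93 ± 0.29 (edgeR adjusted p 0.0118 and 0.016). Over 15 alternatives against WT, TRAJ13, TRAJ15 and TRAJ17 stayed called in 12 each (edgeR or DESeq2 adjusted p up to 0.133). TRAJ7 and TRAJ23 stayed called in 14 each. In β5t-KO mice short TRAJ7 rested on 1 clonotype with TRAV12 and 5 with other V subgroups, and short TRAJ17 on 1 and 3. For TRAJ13 and TRAJ15 the lower mean values lay in TRAV12. Short TRAJ13 clonotypes with TRAV12 made up 0.224% ± 0.032 in WT and 0.07% ± 0.0721 in β5t-KO mice, and with other V subgroups 0.147% ± 0.0406 and 0.149% ± 0.022 (SD, n = 4). TRAJ15 gave 0.13% ± 0.0272 and 0.0176% ± 0.0205 with TRAV12, and 0.109% ± 0.0935 and 0.112% ± 0.0419 with other V subgroups. For these pairs the difference between V subgroups was not tested.

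TRAJ31, the J gene most used by short CDR3α, was not called. Its short clonotypes made up 0.98% ± 0.0652 in WT and 0.707% ± 0.157 in β5t-KO mice (SD, n = 4; log2 fold change -0.32 ± 0.15, edgeR adjusted p 0.11). With TRAV12 it gave 0.412% ± 0.0943 and 0.139% ± 0.0575, and with other V subgroups 0.568% ± 0.0831 and 0.567% ± 0.17. TRAJ33 was at -0.19 ± 0.19 (edgeR adjusted p 0.575) and TRAJ34 at -0.34 ± 0.23 (edgeR adjusted p 0.298).

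By place in the locus, the J genes from TRAJ2 to TRAJ20, at the end nearest the constant region, held 7 of the 11 called J genes. Of 11 tested there 7 were lower, with a median of -1.39. Of 12 tested from TRAJ21 to TRAJ40 3 were lower, with a median of -0.33, and of 10 tested from TRAJ41 to TRAJ61 1 was lower, with a median of -0.35. Beside these, 27.6% of all 76 J and length classes were called, and of the 43 longer classes 6 were higher and 4 lower. The longer classes were not split by place, so whether this pattern by place is particular to short CDR3α was not tested. Holding J gene usage fixed at its mean over the mice left the β5t-KO short share at 4.46% and that of WT at 7.52%, and leaving out TRAJ9 left 4.31% and 7.17%. Both differences, of -3.06 and -2.87 points, had an exact permutation p of 0.0286 (adjusted 0.0714). Within single J genes the β5t-KO mean of the short share was below that of WT for 31 of 33.

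**Figure D4:**
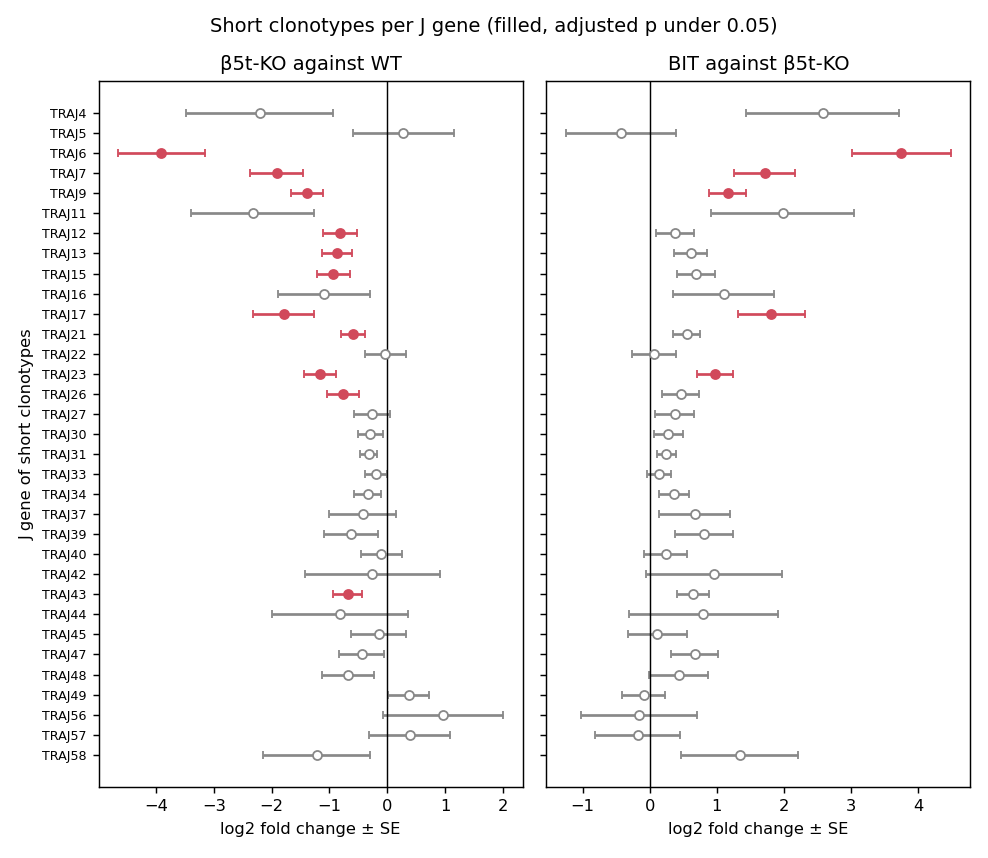
The edgeR log2 fold change of short clonotypes for each of 33 J genes, ordered by number, with bars for the SE. Filled points have an adjusted p under 0.05. In β5t-KO against WT (left) 11 J genes are lower, 7 of them from TRAJ6 to TRAJ17, and in BIT against β5t-KO (right) 5 are higher.

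How often a J gene gave a short CDR3α followed its germline length. Across 43 J genes the short share within the gene in WT mice fell with the number of germline bases it places in the CDR3 (Spearman's rho -0.76, Pearson's r -0.72, a description over J genes of the same libraries). The same held in β5t-KO mice (rho -0.77, r -0.65). The 7 J genes with up to 26 germline bases gave 17.6% ± 1.47 short clonotypes in WT and 11.9% ± 2.6 in β5t-KO mice (SD, n = 4 each). The 14 J genes with 27 to 29 bases gave 7.56% ± 0.497 and 3.97% ± 1.26, and the 22 longer ones 2.7% ± 0.166 and 1.3% ± 0.614. The genotypes did not overlap in any of the 3 classes.

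**Figure D5:**
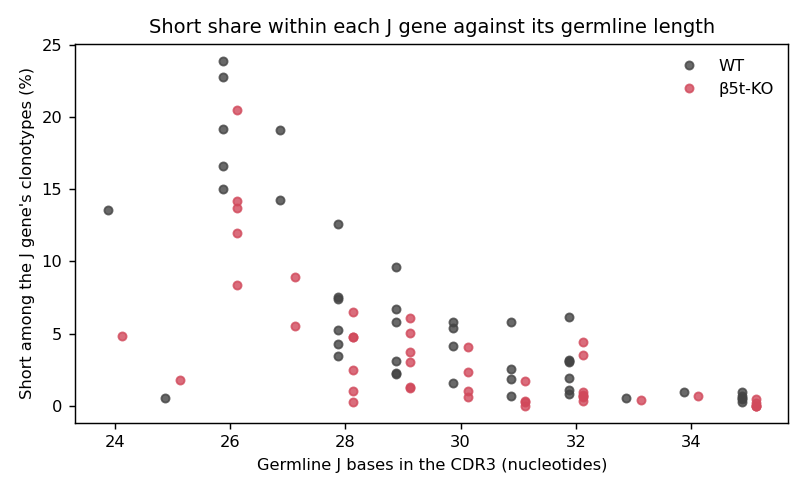
Percent of a J gene's clonotypes that are short (mean over mice) against the germline J bases that fall in the CDR3, for 43 J genes in WT and β5t-KO mice, with points shifted sideways by genotype. The short share falls with germline length in both. Together the 7 J genes with up to 26 bases give 17.6% short clonotypes in WT and 11.9% in β5t-KO mice. These are means over mice, not over the points shown. TRAJ24, with 25 bases, lies apart at 0.536% in WT and 1.79% in β5t-KO mice.

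Short CDR3α were made by heavier trimming and fewer added bases. As means over 17 mice, short clonotypes had lost 6.38 J bases and 4.62 V bases, and longer ones 2.65 and 1.92. They held 1.68 added bases against 2.37, and 37.4% against 25.6% held none. In each of the 17 mice short clonotypes were more trimmed and held fewer added bases than longer ones, as a shorter length largely requires. Short clonotypes held 1.65 ± 0.121 added bases in WT and 1.64 ± 0.309 in β5t-KO mice, and had lost 6.32 ± 0.235 and 6.25 ± 0.432 J bases (SD, n = 4 each). The share with no added base was highest in β5t-KO mice, at 40.9% ± 2.27, against 37.6% ± 2.53 in WT mice, 35.8% ± 2.8 in β5i-KO mice and 35.8% ± 1.77 in BIT mice, and β5t-KO did not overlap BIT mice. Among longer clonotypes β5t-KO and BIT mice did not overlap either, at 28.2% ± 1.59 and 23.6% ± 1.23. These values were not tested between genotypes.

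Out-of-frame rearrangements gave the length distribution without display on the cell surface. Of distinct out-of-frame clonotypes, 3.71% ± 0.681 had a CDR3 of at most 33 bases in WT, 3.79% ± 1.02 in β5i-KO, 3.56% ± 0.213 in BIT and 2.91% ± 0.873 in β5t-KO mice. The difference between β5t-KO and WT was -0.791 points (exact permutation p = 0.229, adjusted 0.571), and the genotypes overlapped. In-frame clonotypes, counted here by nucleotide sequence, were short in 7.78% ± 0.365 of WT and 4.24% ± 1.16 of β5t-KO mice.

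The in-frame share exceeded the out-of-frame share in 17 of 17 mice, by 3.29 points on average (exact sign-flip permutation over mice, p = 1.53e-05). That excess depended on the limit, since no out-of-frame CDR3 is exactly 33 bases long. With a limit of 34 bases the mean difference over all mice was -0.186 points (exact sign-flip permutation p = 0.581). At 34 bases the in-frame share exceeded the out-of-frame share by 0.278 points in WT, 0.505 in β5i-KO and 0.562 in BIT mice, and fell below it in all 4 β5t-KO mice, by -2.26 points on average and between -2.89 and -1.84. Among out-of-frame TRAV12 clonotypes, 38 of 721 in WT (5.27%, 95% Clopper-Pearson interval 3.76% to 7.16%, counting error only) and 12 of 300 in β5t-KO mice (4%, 2.08% to 6.88%) held at most 33 bases. The intervals overlapped, and the difference was not tested.

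The 4 short CDR3α with the highest mean level in WT mice were TRAV12 chains. Next by mean level in WT mice was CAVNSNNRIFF, which used TRAV7 most often. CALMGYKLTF stood at 2504, 1908, 2209 and 2303 CPM (reads scaled to the in-frame total of the library) in the 4 WT mice, 1148 to 1923 in β5i-KO and 934 to 2362 in BIT mice. In β5t-KO mice it was at 86.6 CPM, 4 molecules, in replicate 3 and at 0 in the others. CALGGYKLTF and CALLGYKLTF had no read in any β5t-KO mouse, where 508369 molecules in all allow a share of up to 0.00059%. With the floor of 3 molecules over the group in place of 0, pooled molecules gave a bound of 104-fold below WT mice for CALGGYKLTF. For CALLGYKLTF the bound was 96.7-fold. These bounds and the share of up to 0.00059% treat pooled molecules as independent, although a clone can hold many of them. They do not cover the sampling of cells or the spread between mice.

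These 3 sequences were the only short ones called by edgeR among 450 short recurring sequences, all lower in β5t-KO against WT beside 0.0665% of 6015 recurring sequences called (edgeR adjusted p 0.0339 for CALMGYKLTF and 0.0395 for both others). The same 3 were higher in BIT against β5t-KO, beside 0.0998% called (edgeR adjusted p 0.0283, 0.0283 and 0.0318 for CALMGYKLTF, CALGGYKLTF and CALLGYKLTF). The calls were lost in many settings: 0 short sequences were called against WT without WT replicate 2, 3 or 4, and only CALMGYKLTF without β5t-KO replicate 3. In BIT against β5t-KO 0 were called without BIT replicate 1, 2 or 5. Without β5t-KO replicate 1, 1 short sequence was called in either comparison, and it was not one of the 3. Without WT replicate 1 or β5t-KO replicate 2, 5 and 6 short sequences were called against WT, and without β5t-KO replicate 2, 5 in BIT against β5t-KO. Over 16 alternatives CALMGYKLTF stayed called in β5t-KO against WT in 7 and the other 2 in 6 each, with adjusted p reaching 0.352. On molecules in place of reads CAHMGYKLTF was also lower (edgeR adjusted p 0.0142). Without an adjustment, 197 of 450 short sequences had p under 0.05 with a lower value in β5t-KO than WT and 19 with a higher one. Among all 6015 recurring sequences 2022 were lower and 363 higher in that way. DESeq2 called 196 short sequences lower and 19 higher. Only 4 short sequences recurred in β5t-KO mice, so nearly all of the 450 entered through genotypes where they were high. The filter itself thus favoured lower values in β5t-KO mice.

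Other abundant short CDR3α were not called. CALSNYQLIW was at 3270, 1018, 1428 and 1336 CPM in WT mice and at 179, 0, 0 and 612 CPM in β5t-KO mice, which did not overlap (edgeR adjusted p 0.116). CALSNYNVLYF was at 919 to 1127 CPM in WT, 360 to 1030 in β5i-KO, 441 to 1344 in BIT and 0 to 141 CPM in β5t-KO mice (edgeR adjusted p 0.0876 against WT). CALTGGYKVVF, with TRAJ12, was at 686 to 2849 CPM in WT and 907, 0, 486 and 0 CPM in β5t-KO mice, which overlapped. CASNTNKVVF, with TRAJ34 and among the most abundant in BIT mice, was at 480 to 839 CPM in WT and 177, 0, 0 and 0 CPM in β5t-KO mice, which did not overlap (edgeR adjusted p 0.141).

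The 4 short CDR3α with the highest mean level in β5t-KO mice used TRAV7 most often and were found in replicate 2, the mouse with the fewest clonotypes, and in none of the other β5t-KO mice. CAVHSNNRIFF reached 6849 CPM, 515 molecules, in β5t-KO replicate 2 and was at 0 in all WT mice. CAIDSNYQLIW reached 2385 CPM. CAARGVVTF, of 9 residues, and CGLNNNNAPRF were found in 1 of 17 mice each, at 3603 and 3594 CPM. Next by mean level in β5t-KO mice was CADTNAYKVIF, most often with TRAV3. It was at 161, 0, 122 and 2049 CPM in β5t-KO replicates 1 to 4 and was thus absent from replicate 2. Only 4 short sequences reached 10 CPM in at least 3 β5t-KO mice, whereas 138 did so in WT, 263 in β5i-KO and 343 in BIT mice. Longer sequences gave 283 in β5t-KO, 1459 in WT, 3024 in β5i-KO and 4213 in BIT mice, so recurrence was lowest in β5t-KO mice in both length classes, and 5 β5i-KO mice entered against 4 of each other genotype.

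Of the 138 short sequences that recurred in WT mice, 59 (42.8%) had no read in any β5t-KO mouse, 4 (2.9%) had none in β5i-KO and 3 (2.17%) none in BIT mice. Of 1459 longer sequences that recurred in WT mice, 27.6%, 3.63% and 2.81% had none. Both sets were chosen for recurring in WT mice, so the choice itself favours absence in other genotypes. Of the 4 short sequences that recurred in β5t-KO mice, 0 lacked reads in WT, β5i-KO or BIT mice. The β5t-KO libraries held fewer molecules in all, 508369 against 725474 in β5i-KO and 836143 in BIT mice. The gap was wider in in-frame clones, 17395 against 68785 in β5i-KO and 83049 in BIT mice. The part of depth and of clone number in these counts was not tested. Sharing between mice was similar by length: 7.87% of 6554 short and 8.12% of 83166 longer sequences were found in 5 or more mice, and 0 short and 13 longer sequences were in all 17.

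Interior residues, those left after the first 3 and last 4, differed in make-up between short and longer CDR3α. In WT mice asparagine made up 24.3% ± 1.19 of interior residues in short and 14.7% ± 0.0587 in longer CDR3α (SD, n = 4). Tyrosine made up 12.6% ± 0.722 and 7.05% ± 0.0787, whereas serine was lower in short ones, at 11.8% ± 0.369 and 18.2% ± 0.443. Pooled, asparagine, glutamine, serine and threonine made up 45.6% ± 1.52 in short and 42.9% ± 0.51 in longer CDR3α. Glycine made up 18.5% ± 0.862 and 19.2% ± 0.186. Compared with longer CDR3α of the same mice, short ones held more of those polar residues, by 3.7 ± 1.53 points and in each of 17 mice, more aromatic residues, by 3.68 ± 1.54 with a range from -1.52 to 4.87, and fewer aliphatic ones, by -2.77 ± 0.828, and fewer negatively charged ones, by -2.47 ± 0.92 (mean and SD over 17 mice, a description).

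No residue of the short CDR3α passed the test between genotypes, and glycine and tyrosine had no overlap between β5t-KO and WT mice. Glycine made up 18.2%, 19%, 17.5% and 19.5% of interior residues in WT and 15.6%, 16.9%, 16.9% and 12.8% in β5t-KO mice, with BIT mice at 18% to 18.4% and β5i-KO mice at 17.4% to 18%. Tyrosine made up 12% to 13.4% in WT, 7.69% to 11.9% in β5t-KO and 12% to 12.5% in BIT mice. The β5i-KO mice, at 11.1% to 13.2%, overlapped β5t-KO mice in tyrosine, and the lowest value was that of β5t-KO replicate 2, with 18 short clonotypes. Neither residue overlapped between β5t-KO and BIT mice. None of the 20 residues passed adjustment over 20 residues and 5 comparisons (exact permutation p = 0.0286 and adjusted 0.529 for both). Aspartate was at 5.83% in β5t-KO and 4.04% in BIT mice, also without overlap (exact permutation p = 0.0286, adjusted 0.529).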

How the data were processed

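TCRα libraries were made from sorted CD8 T cells with a kit that adds unique molecular identifiers, and clones were assembled with MiXCR by the authors. Its version and settings are not given in the sources used here. The submitters' processing notes name the genome build mm10. The deposited tables give read counts and molecule counts (unique molecular identifiers) per clone, per the file headers, with the authors' V and J assignments, CDR3 sequence and alignment points. The members and lists were chosen with earlier results of these data known. In-frame clones of at most 11 residues were taken. Clones that did not start with C (2.25%) or end with F or W (2.29%) were kept.

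Shares were compared between 5 pairs of genotypes by exact two-sided permutation over mice with Benjamini-Hochberg adjustment. Clonotypes per length, V subgroup and J gene (split at 11 residues, at least 5 clonotypes in at least 4 libraries, library size as all in-frame clonotypes) and reads per recurring sequence (at least 10 CPM in at least 3 libraries of a group) were tested with edgeR 4.0.16 quasi-likelihood in R 4.3.3, all genotypes in one fit, adjusted over all features and checked on simulated data. DESeq2 1.42.0 was an alternative. Named sequences were, per comparison, up to 5 called ones without overlap and, per genotype, the 5 most abundant, and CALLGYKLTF, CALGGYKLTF and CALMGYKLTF, which the study or earlier results had named; named V and J were those called (up to 6 per comparison) and the most used 5 and 8, and residues those called or with the largest differences. TRAJ26 and TRAJ43 are left to counts. CPM was computed here from the deposited read counts over in-frame reads. TCRβ tables were not used. Germline segments and positions come from GENCODE M39 on GRCm39, which is not the authors' build. Nothing says that mice were litter- or batch-matched, and no 2 libraries of a genotype were identical (28 pairs). Intervals and floors cover counting error only. The precision in β5t-KO mice is limited by their short clonotypes, of which replicate 2 has 18 and replicate 4 has 65.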

Additional observations from a re-analysis of the deposited data

Results flagged for a closer look

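Among 152 sets of 4 or 5 mice, 20 held a mouse set apart from the others of its genotype by more than Dixon's 95% limit. For normally spread values chance gives about 1 in 20. That rate does not apply to sets in which all other mice were at 0 or to sequences listed for their high mean, and many flagged sets were of these kinds. Among β5t-KO mice the out-of-frame short share was 1.61% in the lowest mouse, TRAV14 short clonotypes were 0.161% of clonotypes in the lowest, TRAJ15 short clonotypes 0.0602% in the lowest mouse, and TRAJ6 short clonotypes 0.0155% in the only mouse that held any. Length 9 was at 0.159% of clonotypes in 1 β5i-KO mouse, and TRAV3 short clonotypes were at 0.563% in 1 WT mouse.

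The remaining sets were single sequences. β5t-KO replicate 3 alone among β5t-KO mice held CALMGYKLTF, at 86.6 CPM, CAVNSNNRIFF, at 134 CPM, and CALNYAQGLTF, at 107 CPM, and replicate 1 alone held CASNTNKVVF, at 177 CPM. Others were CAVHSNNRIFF at 6849 CPM, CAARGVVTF at 3603 CPM, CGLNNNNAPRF at 3594 CPM, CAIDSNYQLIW at 2385 CPM and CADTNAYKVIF at 2049 CPM, each the value of 1 β5t-KO mouse. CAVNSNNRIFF stood at 2035 CPM in 1 WT mouse and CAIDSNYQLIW at 53.6 CPM in another. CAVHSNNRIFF was at 60.9 CPM in 1 β5i-KO mouse and 75.4 CPM in 1 BIT mouse, and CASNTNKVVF was lowest among BIT mice at 414 CPM in 1.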

How the results depend on the processing

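The lower short share of β5t-KO mice against WT and BIT kept its direction in every alternative run. It passed 0.05 after adjustment with thinned molecules (-5.1 points against WT and 4.08 for BIT against β5t-KO, with BIT against WT at -1.02) and with the amino acid sequence alone as clonotype (-3.38, 2.83 and -0.543). In both settings its exact permutation p stayed at 0.0286, the smallest possible. The adjusted value fell to 0.0476 only because BIT against WT reached that floor as well, so the pass is no stronger evidence. Differences among the other genotypes changed sign. For molecules, BIT against β5i-KO was 0.0854 points at a limit of 10 residues and 0.0402 at 12. For clonotypes, β5i-KO against WT was 0.106 with clones of at least 2 molecules. In alternatives chosen after seeing the data it was 0.207 with V usage fixed, 0.0038 with CDR3 from C to F or W, 0.327 in TRAV12 clonotypes only, 0.152 without TRAV12 and 0.109 without TRAJ9, and BIT against WT was 0.105 without TRAV12. The in-frame excess became -0.186 points at 34 nucleotides, since out-of-frame lengths step differently.

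Counts of short features called moved as follows. Short lengths called in BIT against β5t-KO numbered 2 with DESeq2, and 8 residues was not called on molecules or without β5t-KO replicate 1. V subgroups numbered 2 in BIT against β5t-KO with BIT replicate 3 included, 3 in β5t-KO against WT with DESeq2, and 1 in BIT against WT and 3 in BIT against β5t-KO with only the 2 groups compared. J genes numbered 4 in β5t-KO against WT and 2 in BIT against β5t-KO with DESeq2, 7 in β5t-KO against WT with TMM, and 8 in BIT against β5t-KO with molecules. Recurring sequences numbered 0 in β5t-KO against WT and 0 in BIT against β5t-KO with BIT replicate 3 included, with no filter and with recurrence in 2 libraries. With only the 2 groups compared they numbered 0 and 177, and with TMM 225 in BIT against β5t-KO. DESeq2 called 215 in β5t-KO against WT, 66 in β5i-KO against WT, 57 in BIT against WT, 23 in BIT against β5i-KO and 243 in BIT against β5t-KO. The causes were not tested.

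Leaving out each mouse in turn gave -0.516 to 0.0111 points for molecules in BIT against β5i-KO, -0.171 to 0.123 for clonotypes in β5i-KO against WT and -0.429 to 0.681 for the TRAV12 excess in β5i-KO against WT (chosen after seeing the data). Short V subgroups called ranged from 0 to 1 in BIT against WT (1 without WT replicate 3) and in β5i-KO against WT (1 without WT replicate 4), and from 1 to 2 for β5t-KO and WT (2 without WT replicate 1) and 1 to 2 in BIT against β5t-KO (2 without BIT replicate 1 or 4). J genes ranged from 4 to 10 in β5t-KO against WT and 3 to 6 in BIT against β5t-KO, and sequences from 0 to 6 and 0 to 5. Without 1 mouse, the smallest exact permutation p of 4 against 4 mice is 0.0571.

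In most comparisons same-numbered mice did not all deviate together (correlations from -0.34 to 0.31). For J genes in BIT against WT all 3 pairs were at 0.15 to 0.17. There the block left 0 short J genes called, as without it. For V subgroups in BIT against β5t-KO the 3 pairs were at 0.10 to 0.16. There 1 short V subgroup was called without the block and 2 with it. In the other comparisons mice share only a number. With the replicate block β5t-KO differed from WT by -3.27 points of clonotypes and -4.82 of molecules (exact sign-flip permutation p = 0.125, the smallest possible). Short V subgroups called numbered 2 in BIT against WT and 2 in BIT against β5t-KO under the block, and sequences 1 in β5t-KO against WT and 1 in BIT against β5t-KO. The number of clonotypes limits the β5t-KO mice most, with 18 short ones in replicate 2.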
